A study of Homo sapiens with 8 samples.

Results

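In all, 47 antisense RNAs, each set beside the gene it is named after, were followed in 2 human bladder cancer cell lines. A member was any row of the expression table whose symbol was a gene symbol followed by -AS and a number, whose sense symbol was itself in the table, and whose mean level over all 8 libraries was at least 0.5 TPM (a level scaled for transcript length and library size). Of 27475 human genes in the table, 131 carried such a name, 126 of these had their sense symbol in the table, and 47 reached the limit. The other 79 were under it, 29 of them at 0 in all 8 libraries. The 47 antisense RNAs belonged to 46 sense genes, because EPB41L4A had both EPB41L4A-AS1 and EPB41L4A-AS2.

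The study transfected UM-UC-3 and RT112 cells with siRNA against PAI-1 and sequenced their mRNA. The 4 groups had 2 libraries each. Scr was a pool of 3 scrambled siRNAs in cells labelled WT, and siPAI-1 was a pool of 3 siRNAs in cells labelled PAI-1 knockdown. All groups received 100 pmol of siRNA with 9 µl of the transfection reagent INTERFERin for 72 h, the controls included. No untransfected cells were compared here. Both lines are established cultures, so each stands for 1 tumour, and the labels do not say whether the 2 libraries of a group came from separate cultures. The study describes independent replicate experiments, more of them than there are libraries in a group here, and which of them gave these libraries is not stated. The p-values therefore measure only the spread between these libraries.

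Antisense RNAs are read from the DNA strand opposite to their neighbour. Many start close to a gene's own start and run away from it, from a shared stretch of promoter DNA that fires in both directions. Others lie inside the gene and cross its exons or introns. Many such transcripts are short-lived, because the nuclear RNA exosome, a multi-subunit ribonuclease, and its adaptors degrade them, and a few have been given roles in the expression of their neighbour.

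The libraries were estimated at 29300000 to 34200000 reads and had 16157 to 16663 genes above 0. All 10 luminal epithelial markers were higher in RT112 Scr, with summed levels of 8443 and 8675 TPM against 307 and 324 TPM in UM-UC-3 Scr. Of the 5 mesenchymal markers 4 were higher in UM-UC-3 Scr, the exception being CDH2, which was higher in RT112 Scr (18.2 and 20.6 TPM against 10.6 and 9.22 TPM). Of 10 markers of leukocytes, endothelium and fibroblasts, 8 were at most 1 TPM in every Scr library, PTPRC at 0 among them. The other two were the fibroblast genes COL1A1 (2.68 and 4.19 TPM in UM-UC-3 against 5.39 and 6.78 TPM in RT112) and LUM (0.88 and 0.19 against 15.2 and 10.7 TPM). Of 8 that could be tested, LUM, CDH5 and CD3E were higher in RT112 and DCN and CD14 lower, and their part in the results was not tested.

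Most of the antisense RNAs began next to the start of their sense gene. In GENCODE, 28 of the 46 pairs that could be placed were divergent, with the antisense start 17 to 429 bases before the sense start (median 117 bases) and no overlap. In 10 pairs exons overlapped, by 20 to 2200 bases, and in 8 the spans overlapped without shared exon bases. RALY-AS1 was not matched to GENCODE. The class depended on the annotation: by the gene spans of RefSeq on GRCh38.p14, 31 of the 46 pairs were divergent and 15 overlapped, and 25 were divergent in both. A further 6 pairs were divergent only in RefSeq, FAM83H-AS1 and SOX21-AS1 among them, and 3 only in GENCODE. Of the 28 divergent RNAs, 20 now carry a name ending in -DT, for divergent transcript. In GENCODE, 43 members were long non-coding RNAs. FAM83H-AS1 (now IQANK1) and NCBP2-AS2 (now NCBP2AS2) were annotated as protein-coding, and CRYM-AS1 as a unitary pseudogene.

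**Figure D1:**
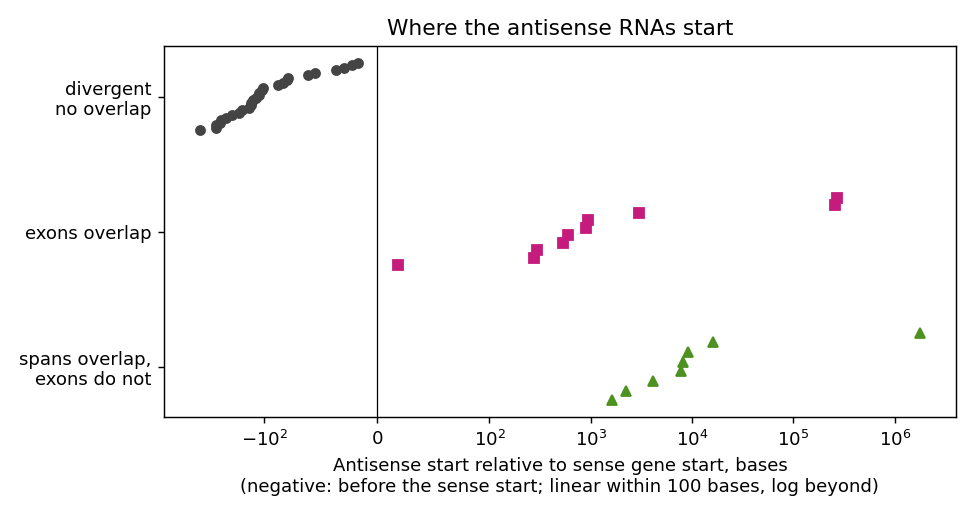
Start of each antisense RNA relative to the start of its sense gene, in bases (x axis, linear within 100 bases and logarithmic beyond), for 46 pairs in 3 arrangements from GENCODE (rows; the height within a row only separates the points). The 28 divergent RNAs lie between 429 and 17 bases before the sense start, and the RNAs with overlapping exons or spans start between 19 and 1754918 bases past it.

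The windows around the antisense starts are shown for 5 pairs that the results below turn on: a pair that was higher together, 2 pairs that were lower together, and the 2 pairs called in opposite directions. Each run of 300 bases covers 250 bases before and 50 after a RefSeq start of the antisense RNA on GRCh38.p14, read 5′ to 3′ on the antisense strand. Capitals mark the bases that the window of the sense gene, read on the opposite strand, also holds. GATA3-AS1 (chr10:8053400-8053699, minus strand) shared 291 bases with GATA3, OSMR-AS1 (chr5:38845780-38846079, minus strand) 282 with OSMR, RAB30-AS1 (chr11:83071816-83072115, plus strand) 268 with RAB30, NCBP2-AS2 (chr3:196942424-196942723, plus strand) 245 with NCBP2, and EPHA5-AS1 (chr4:65669711-65670010, plus strand) 28 with EPHA5.
GATA3-AS1: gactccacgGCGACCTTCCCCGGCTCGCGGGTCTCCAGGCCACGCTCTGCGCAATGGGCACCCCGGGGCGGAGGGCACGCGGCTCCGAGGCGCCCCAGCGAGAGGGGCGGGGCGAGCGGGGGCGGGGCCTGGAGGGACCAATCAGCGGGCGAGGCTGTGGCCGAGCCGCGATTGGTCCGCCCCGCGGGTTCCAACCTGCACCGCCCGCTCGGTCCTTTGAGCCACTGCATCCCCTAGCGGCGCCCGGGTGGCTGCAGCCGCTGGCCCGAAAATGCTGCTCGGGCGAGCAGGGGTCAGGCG
OSMR-AS1: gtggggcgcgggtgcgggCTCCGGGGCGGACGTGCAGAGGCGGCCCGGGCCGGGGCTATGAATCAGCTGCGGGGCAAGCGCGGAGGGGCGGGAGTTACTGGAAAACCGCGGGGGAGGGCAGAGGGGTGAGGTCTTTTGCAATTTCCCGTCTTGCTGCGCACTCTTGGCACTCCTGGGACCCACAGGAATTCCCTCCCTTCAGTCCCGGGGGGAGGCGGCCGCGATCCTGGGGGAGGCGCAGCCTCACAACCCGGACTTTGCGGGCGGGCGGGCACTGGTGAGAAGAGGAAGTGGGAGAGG
EPHA5-AS1: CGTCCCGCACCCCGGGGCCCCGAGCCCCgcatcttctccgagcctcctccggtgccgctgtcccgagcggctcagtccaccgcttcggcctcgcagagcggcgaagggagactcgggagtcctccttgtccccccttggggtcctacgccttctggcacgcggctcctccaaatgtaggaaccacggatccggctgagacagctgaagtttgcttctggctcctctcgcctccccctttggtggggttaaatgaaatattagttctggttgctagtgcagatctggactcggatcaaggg
NCBP2-AS2: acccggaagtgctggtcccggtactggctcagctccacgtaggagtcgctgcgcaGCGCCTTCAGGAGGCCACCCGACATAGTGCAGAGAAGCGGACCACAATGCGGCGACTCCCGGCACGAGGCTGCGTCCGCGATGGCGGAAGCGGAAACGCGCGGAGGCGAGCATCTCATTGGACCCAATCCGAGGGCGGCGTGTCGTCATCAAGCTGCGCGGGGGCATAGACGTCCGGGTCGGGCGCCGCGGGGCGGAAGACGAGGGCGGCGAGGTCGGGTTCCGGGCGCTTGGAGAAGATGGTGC
RAB30-AS1: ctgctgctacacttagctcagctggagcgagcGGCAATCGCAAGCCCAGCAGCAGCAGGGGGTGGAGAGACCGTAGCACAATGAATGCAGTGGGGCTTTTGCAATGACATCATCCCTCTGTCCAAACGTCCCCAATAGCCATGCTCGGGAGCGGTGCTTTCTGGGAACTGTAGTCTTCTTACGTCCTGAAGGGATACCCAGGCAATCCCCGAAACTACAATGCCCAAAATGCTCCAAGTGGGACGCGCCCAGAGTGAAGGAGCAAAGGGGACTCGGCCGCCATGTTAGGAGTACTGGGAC

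A RefSeq window was found for 38 of the 47 antisense RNAs, and for 35 pairs on both sides. In 29 of these 35 the windows shared bases on opposite strands, 28 to 293 of them (median 243). Where a gene had several starts, the pair of windows with the most shared bases was taken. The letters TATAAA, searched on both strands, were in 1 of the 38 antisense windows, that of SOX21-AS1 (2.6%), and in 11.5% of all 35116 windows. The median number of CG pairs was 34 in the 38 windows and 14 in all windows. The windows of pairs called together and of pairs called apart both included long shared stretches, as the capitals above show for GATA3-AS1 and RAB30-AS1.

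The antisense RNAs were mostly far below their neighbours. The median of the members' mean levels was 2.01 TPM for the antisense RNAs and 22.5 TPM for the sense genes, and the antisense RNA was lower in 43 of 47 pairs. The 4 exceptions were EPB41L4A-AS1 (mean 35.5 TPM against 6.55 TPM for its sense gene), RAB30-AS1 (16 against 6.02 TPM), FGF14-AS2 (2.16 against 0.04 TPM) and CRYM-AS1 (0.6 against 0.062 TPM). In all, 7 members reached 10 TPM and 16 stayed under 1 TPM. For the 46 with a known length, an upper estimate of the mean reads per library ran from 4.9 to 3031 (median 89.1), and 2 were under 10. Just inside the limit lay SAMD12-AS1 (0.505 TPM), SLC25A30-AS1 (0.546 TPM) and CDC37L1-AS1 (0.572 TPM), and just outside it STK4-AS1 (0.496 TPM), SEPT7-AS1 (0.388 TPM) and SLC2A1-AS1 (0.359 TPM). The labels do not give the strand setting of the counting, so reads in overlapping exons could have been divided between sense and antisense.

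**Figure D2:**
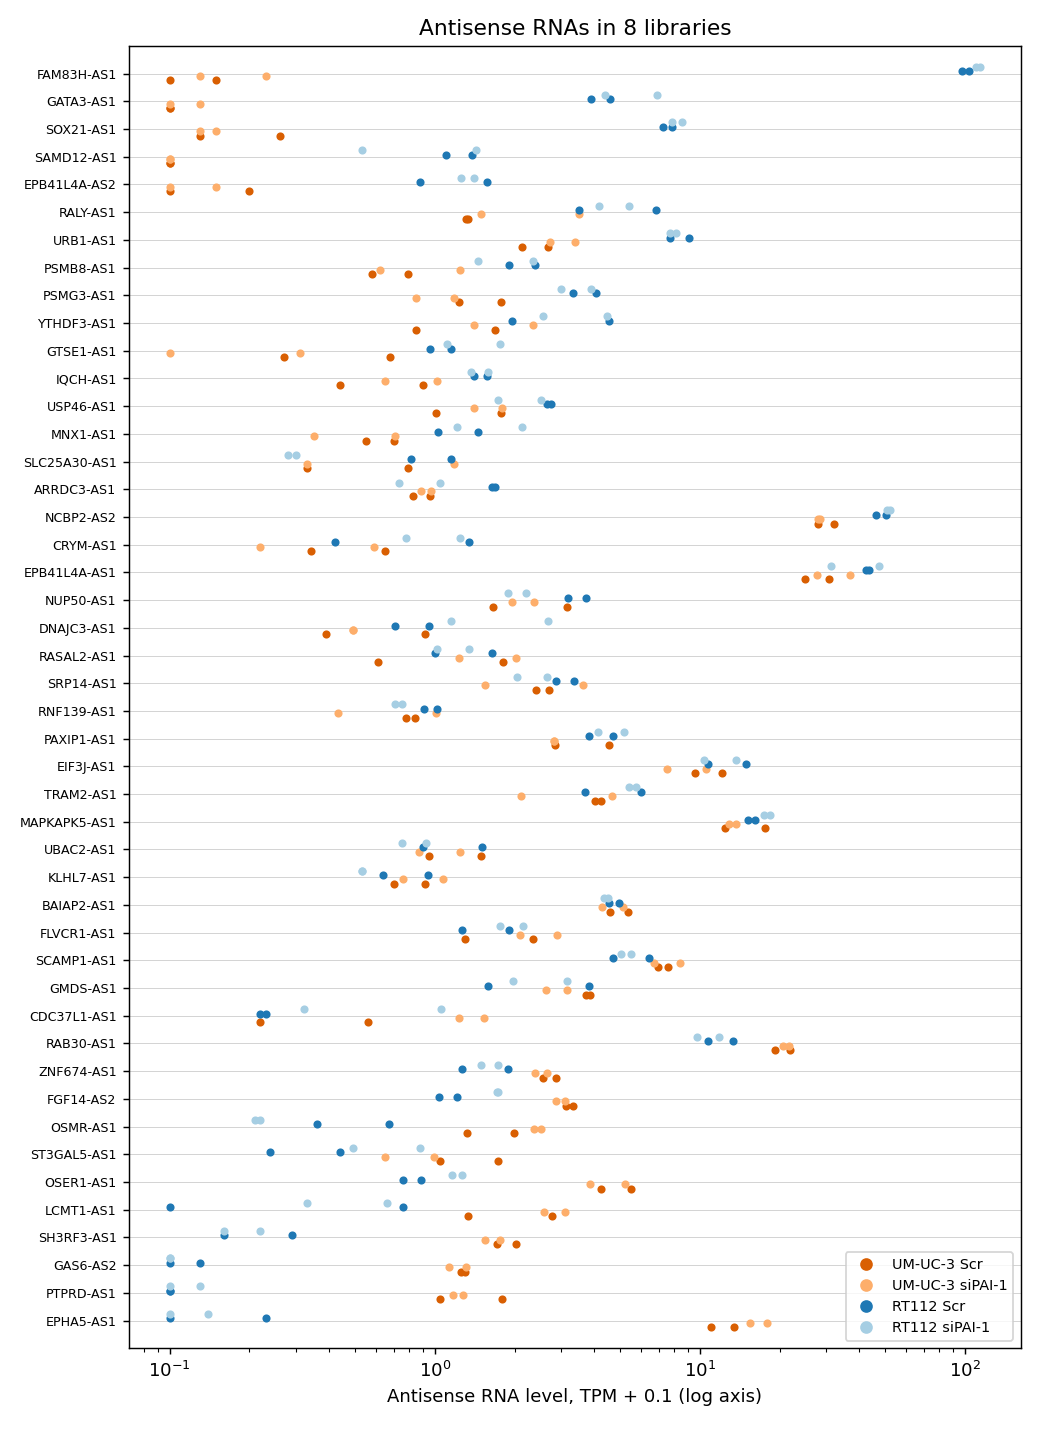
Level of 46 of the antisense RNAs in each library, as TPM + 0.1 on a logarithmic x axis, with 2 points per group and RNAs ordered by their difference between RT112 Scr and UM-UC-3 Scr. FAM83H-AS1 at the top reaches 97.1 to 114 TPM in RT112 and at most 0.13 TPM in UM-UC-3, and EPHA5-AS1 at the bottom reaches 10.9 to 17.7 TPM in UM-UC-3 and at most 0.13 TPM in RT112.

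The lines were compared in the Scr libraries, as log2(TPM + 0.1) in RT112 minus UM-UC-3. Of the 47 antisense RNAs, 11 were higher in RT112, 9 were lower and 27 did not pass an adjusted p of 0.05. Over all 19201 genes tested, 25.3% were higher and 26.3% lower, 51.6% in all, and the members' share was 42.6%. Of 45 sense genes tested, 15 were higher and 13 lower (62.2%); CRYM was at 0 in these 4 libraries. The median log2 difference was 0.25 for the antisense RNAs, 0.12 for the sense genes and -0.06 over all genes. These counts hold RNAs that reached the limit through 1 line. Only in RT112 were 9 members at 0.5 TPM or above, and only in UM-UC-3 were 8. The rule favoured a difference in such members but did not fix the outcome of the test: MNX1-AS1, among others, was not called. Among the 30 members over the limit in both lines, 6 antisense RNAs were higher and 3 lower (30%), and 9 of their sense genes were higher and 6 lower (50%). GATA3-AS1, FAM83H-AS1, GAS6-AS2 and SAMD12-AS1 kept their call whichever of the 4 libraries was left out, and all 4 were over the limit in 1 line alone. Of the 9 called among the 30 members over it in both lines, 0 kept the call in every such fit. In bulk RNA, fewer cells expressing a gene and less RNA per cell cannot be told apart.

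Among the transcription factor pairs, 2 of 4 antisense RNAs were higher in RT112 and none was lower, against 25.3% and 26.3% of all genes. Both reached the 0.5 TPM limit through RT112 alone, so the rule favoured a higher level there. This group and those below were drawn up by role after the values had been seen, so their counts carry no test. GATA3 is a zinc finger factor of luminal urothelium. GATA3-AS1 was listed at 0 in both UM-UC-3 Scr libraries and stood at 3.79 and 4.47 TPM in RT112 Scr. GATA3 itself had 0.96 and 1.38 TPM in UM-UC-3 against 109 and 105 TPM in RT112. Neither gene overlapped between the lines, and the log2 differences were 5.4 ± 0.3 (SE, adjusted p = 0.000756) for GATA3-AS1 and 6.41 ± 0.2 (adjusted p = 0.000316) for GATA3. SOX21 is a factor of the SOX family. SOX21-AS1 had 0.16 and 0.03 TPM in UM-UC-3 Scr against 7.76 and 7.14 TPM in RT112 Scr, and SOX21 had 0.02 and 0 TPM against 9.39 and 8.34 TPM. Both were higher in RT112 in every library, by 5.36 ± 0.44 (adjusted p = 0.00168) and 6.35 ± 0.29 (adjusted p = 0.000543) on the log2 scale. MNX1-AS1, beside a homeobox gene (0.45 and 0.6 TPM against 1.35 and 0.93 TPM, adjusted p = 0.0839), and ZNF674-AS1, beside a zinc finger gene (2.47 and 2.77 TPM against 1.79 and 1.17 TPM, adjusted p = 0.0931), did not pass the test. Where a line lay near 0 TPM, the size of the log2 difference depended on the 0.1 TPM added.

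Among the 11 antisense RNAs beside genes of receptors and signalling, 6 were lower in RT112, none was higher and 5 did not pass, against 26.3% lower and 25.3% higher of all genes. Of the 6, 5 reached the limit through UM-UC-3 alone, so the rule favoured lower levels in RT112, the exception being FGF14-AS2. EPHA5 is a receptor tyrosine kinase for ephrins. EPHA5-AS1 had 10.9 and 13.4 TPM in UM-UC-3 Scr against 0.13 and 0 TPM in RT112 Scr, and EPHA5 had 19.6 TPM in both UM-UC-3 libraries and 0.01 TPM in both RT112 libraries. The log2 differences were -6.33 ± 0.5 (adjusted p = 0.00156) and -7.48 ± 0.24 (adjusted p = 0.000342), and 42.4% of the exon bases of EPHA5-AS1 lay opposite EPHA5 exons. PTPRD is a receptor tyrosine phosphatase. PTPRD-AS1 had 1.7 and 0.95 TPM in UM-UC-3 and was listed at 0 in both RT112 libraries, beside 24.7 and 23.2 TPM against 0.02 and 0.14 TPM for PTPRD (adjusted p = 0.00309 and 0.000836). Both of these pairs were nearly silent in RT112.

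The other 4 antisense RNAs of this group that were lower in RT112 stood beside GAS6, OSMR, SH3RF3 and FGF14. GAS6 encodes a ligand of the TAM receptor tyrosine kinases. GAS6-AS2 had 1.16 and 1.2 TPM in UM-UC-3 Scr against 0.03 and 0 TPM in RT112 Scr (adjusted p = 0.00214), while GAS6 went from 29.1 and 28 TPM to 11.1 and 10.5 TPM, 0.377 times the UM-UC-3 level (adjusted p = 0.000993). OSMR is a subunit of the oncostatin M receptor. OSMR-AS1 had 1.89 and 1.22 TPM against 0.57 and 0.26 TPM, 0.267 times the level in UM-UC-3 (log2 difference -1.72 ± 0.47, adjusted p = 0.0417), and OSMR had 61 and 58.7 TPM against 24.6 and 22.5 TPM, 0.393 times (adjusted p = 0.00086). Both genes of each pair were lower in every RT112 library. SH3RF3-AS1, beside a RING and SH3 domain protein, had 1.92 and 1.62 TPM against 0.19 and 0.06 TPM (adjusted p = 0.00619), and SH3RF3 5.14 and 5.43 TPM against 0.07 and 0.02 TPM. FGF14-AS2 had 3.22 and 3.02 TPM against 1.11 and 0.94 TPM (adjusted p = 0.00903) beside FGF14, an intracellular fibroblast growth factor homologue that was at most 0.08 TPM in the Scr libraries.

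**Figure D3:**
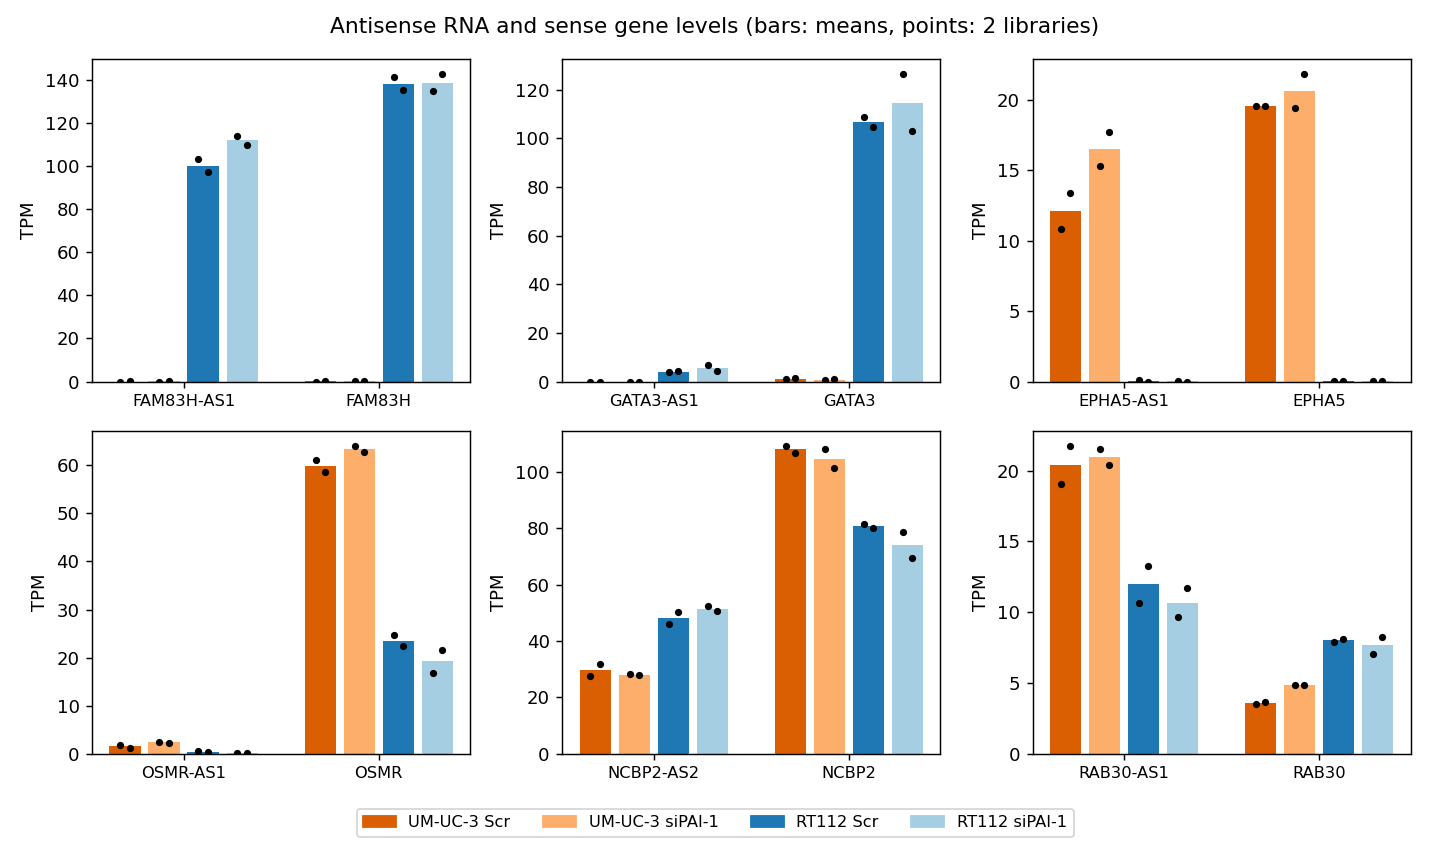
TPM of 6 antisense RNAs and their sense genes, with bars for group means and points for the 2 libraries of each group (each panel has its own linear y axis from 0). FAM83H-AS1, GATA3-AS1, EPHA5-AS1 and OSMR-AS1 differ between the lines in the direction of their sense genes, and NCBP2-AS2 and RAB30-AS1 differ in the opposite direction.

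Of 9 antisense RNAs beside genes of the cytoskeleton and membranes, 3 were higher in RT112 and 2 were lower, against 25.3% and 26.3% of all genes. FAM83H-AS1 and EPB41L4A-AS2 reached the limit through RT112 alone and ST3GAL5-AS1 through UM-UC-3 alone. FAM83H organises keratin filaments. FAM83H-AS1 was the most abundant member in RT112, at 103 and 97.1 TPM against 0 and 0.05 TPM in UM-UC-3 Scr (log2 difference 9.68 ± 0.27, adjusted p = 0.000305), and FAM83H had 141 and 135 TPM against 0 and 0.22 TPM (9.6 ± 0.61, adjusted p = 0.000967). FAM83H-AS1 lay below FAM83H in both RT112 Scr libraries, and both genes were close to 0 in UM-UC-3. EPB41L4A, a FERM domain protein, had 5.68 and 12.6 TPM in RT112 and 1.24 and 0.34 TPM in UM-UC-3 (adjusted p = 0.02). Its 2 antisense RNAs differed by unequal amounts: EPB41L4A-AS2, next to the sense start, had 1.47 and 0.78 TPM against 0.1 and 0 TPM (adjusted p = 0.0129), and EPB41L4A-AS1, at the far end of the gene, had 43.5 and 42.3 TPM against 24.8 and 30.6 TPM, 1.55 times the UM-UC-3 level (adjusted p = 0.0172). ST3GAL5-AS1, beside the ganglioside GM3 synthase gene, had 0.95 and 1.63 TPM in UM-UC-3 against 0.34 and 0.14 TPM in RT112 (adjusted p = 0.0297), and ST3GAL5 had 46.2 and 47.1 TPM against 23.1 and 21.9 TPM. Outside these groups, SAMD12-AS1 was at 0 in every UM-UC-3 library and at 1.28 and 1 TPM in RT112 Scr (adjusted p = 0.00182), beside SAMD12 at 0.02 and 0.1 TPM against 11.6 and 10.1 TPM.

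In 2 pairs, both divergent, the antisense RNA and the sense gene were called in opposite directions. NCBP2 is the small subunit of the nuclear cap-binding complex. NCBP2-AS2 had 27.7 and 31.9 TPM in UM-UC-3 Scr against 45.9 and 50.1 TPM in RT112 Scr, 1.61 times the level (log2 difference 0.69 ± 0.1, adjusted p = 0.0083). NCBP2 had 109 and 107 TPM against 81.6 and 79.9 TPM, 0.748 times the level (-0.42 ± 0.05, adjusted p = 0.00453). RAB30 is a small GTPase of the Golgi. RAB30-AS1 had 19 and 21.7 TPM in UM-UC-3 against 10.7 and 13.2 TPM in RT112, 0.587 times the level (-0.77 ± 0.15, adjusted p = 0.0183), and RAB30 had 3.51 and 3.63 TPM against 7.88 and 8.13 TPM, 2.24 times the level (1.14 ± 0.14, adjusted p = 0.00495). Neither gene overlapped between the lines in either pair. Their windows, printed above, shared 245 and 268 of 300 bases. Both antisense calls were lost in each fit that left out 1 of the 4 libraries.

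In 5 pairs the antisense RNA was called while the sense gene was not. URB1-AS1, beside a ribosome biogenesis gene, had 2.03 and 2.58 TPM in UM-UC-3 Scr against 7.62 and 9 TPM in RT112 Scr, 3.6 times the level (adjusted p = 0.00408), while URB1 had 11.4 and 11.1 TPM against 13.4 and 12.3 TPM (adjusted p = 0.217). RALY-AS1, beside a heterogeneous nuclear ribonucleoprotein gene, had 1.23 and 1.21 TPM against 3.39 and 6.71 TPM (adjusted p = 0.0205), and RALY 268 and 248 TPM against 308 and 287 TPM (adjusted p = 0.0621). PSMG3-AS1, beside a proteasome assembly chaperone gene, had 1.13 and 1.67 TPM against 3.23 and 3.97 TPM (adjusted p = 0.0247), and PSMG3 had 53.4 and 56 TPM against 50.4 and 48.2 TPM (adjusted p = 0.135). OSER1-AS1 went the other way, with 5.38 and 4.13 TPM in UM-UC-3 against 0.66 and 0.79 TPM in RT112, 0.152 times the level (adjusted p = 0.0031), beside OSER1 at 40.9 and 39.4 TPM against 34.3 and 37.4 TPM (adjusted p = 0.165). FGF14-AS2, described above, was the other. A call for one gene of a pair and not for the other does not show that the pair differed. The log2 ratios of antisense to sense, explained below, were not tested. In UM-UC-3 Scr against RT112 Scr they were -2.43 and -2.06 against -0.8 and -0.45 for URB1-AS1. For RALY-AS1 they were -7.65 and -7.56 against -6.46 and -5.4, and for PSMG3-AS1 -5.44 and -4.99 against -3.92 and -3.57. For OSER1-AS1 they were -2.9 and -3.22 against -5.5 and -5.4. For FGF14-AS2, whose sense gene lay near 0 TPM, they were 4.79 and 4.83 against 2.75 and 2.89.

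The reverse also occurred: 14 sense genes were called while the antisense RNA was not, 8 of them higher and 6 lower in RT112. BAIAP2, an actin-membrane adaptor, had 9.52 and 8.1 TPM in UM-UC-3 Scr against 98.5 and 100.3 TPM in RT112 Scr, 11.3 times the level (log2 difference 3.49 ± 0.11, adjusted p = 0.000314). BAIAP2-AS1, which starts 241 bases before BAIAP2, had 5.25 and 4.49 TPM against 4.84 and 4.45 TPM (-0.06 ± 0.17, adjusted p = 0.776). ARRDC3, an arrestin-domain protein, had 79.8 and 74.1 TPM against 16.7 and 14.5 TPM (adjusted p = 0.000531), and ARRDC3-AS1 had 0.86 and 0.73 TPM against 1.58 and 1.54 TPM (adjusted p = 0.0531). GMDS, an enzyme of GDP-fucose synthesis, had 17.3 and 13.2 TPM against 75.4 and 73.6 TPM (adjusted p = 0.00104), beside GMDS-AS1 at 3.62 and 3.76 TPM against 1.49 and 3.72 TPM (adjusted p = 0.352). DNAJC3, an endoplasmic reticulum co-chaperone, had 9.67 and 9.99 TPM against 29.1 and 30.7 TPM (adjusted p = 0.00077), beside DNAJC3-AS1 at 0.29 and 0.82 TPM against 0.85 and 0.61 TPM. PSMB8, a catalytic subunit of the immunoproteasome, was called together with its antisense RNA: PSMB8-AS1 had 0.69 and 0.48 TPM against 1.8 and 2.29 TPM (adjusted p = 0.0169), and PSMB8 22.1 and 26.2 TPM against 77.6 and 71.6 TPM (adjusted p = 0.00115).

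Among the abundant antisense RNAs, EIF3J-AS1, MAPKAPK5-AS1 and SCAMP1-AS1 did not pass the test, and the libraries of the lines overlapped in the first 2 of these. EIF3J-AS1, beside a translation initiation factor subunit gene, had 9.52 and 12.1 TPM in UM-UC-3 Scr against 14.9 and 10.7 TPM in RT112 Scr (adjusted p = 0.446). MAPKAPK5-AS1, beside a protein kinase gene, had 12.4 and 17.5 TPM against 16 and 15.1 TPM (adjusted p = 0.748). The sense gene EIF3J nevertheless passed the test, at 1.47 times its UM-UC-3 level (adjusted p = 0.00134). SCAMP1-AS1, beside a secretory carrier membrane protein gene, had 6.85 and 7.49 TPM against 4.62 and 6.33 TPM (adjusted p = 0.197).

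Across pairs, antisense and sense differences had the same sign in 29 of 46. In this set, 7 pairs were called higher together, FAM83H-AS1, EPB41L4A-AS1, EPB41L4A-AS2, SOX21-AS1, GATA3-AS1, PSMB8-AS1 and SAMD12-AS1 with their sense genes, and 6 were called lower together. Pearson's r across the 46 pairs was 0.84 and Spearman's rho 0.48, as a description over genes that share libraries. Of the pairs called together, only EPB41L4A-AS1 and PSMB8-AS1 had an antisense RNA over the limit in both lines. Their exons overlapped those of the sense gene in GENCODE, by 2200 and 602 bases, and the strand setting of the counting is not given. Whether reads were divided between sense and antisense in these pairs was not tested. In the other pairs called together the antisense RNA reached the limit through 1 line alone, so the rule favoured a difference. The signs and correlations include such pairs and were not computed without them. Among the 28 pairs divergent in GENCODE the sign was shared in 17, with r of 0.5 and rho of 0.2. Among the 31 divergent in RefSeq it was shared in 18, with r of 0.81 and rho of 0.27. Where exons overlapped in GENCODE, 5 of 10 pairs shared the sign (r 0.84, rho 0.43), and where only the spans overlapped 6 of 7 did (r 0.95, rho 1). All 7 antisense RNAs of this last class were called, and 6 of them were over the limit in 1 line alone.

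**Figure D4:**
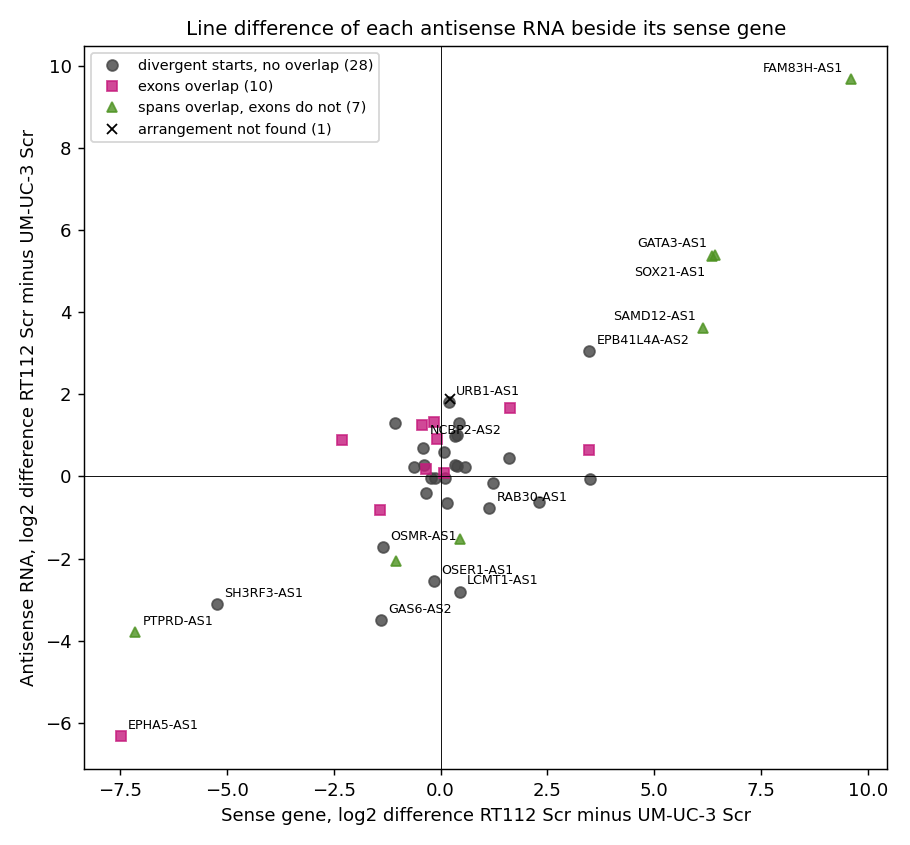
Log2 difference, RT112 Scr minus UM-UC-3 Scr on the log2(TPM + 0.1) scale, of each sense gene (x axis) and its antisense RNA (y axis) for 46 pairs, marked by arrangement in GENCODE. Points in the lower left and upper right quadrants (29 pairs) differ in the same direction, and the pairs far from 0 on both axes, such as FAM83H-AS1 and EPHA5-AS1, fall in these quadrants.

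The ratio of antisense to sense RNA, log2 of antisense minus sense in the same library, did not overlap between the lines in 30 of 47 pairs, 16 with a higher ratio in RT112 and 14 with a lower one. For the TPM of single genes, 72.3% of all genes did not overlap between these groups. The ratio exists only for the chosen pairs, so it is given by library with no test. In NCBP2-AS2 the ratio was -1.97 and -1.74 in UM-UC-3 Scr and -0.83 and -0.67 in RT112 Scr, and in RAB30-AS1 it was 2.41 and 2.55 against 0.43 and 0.7. In BAIAP2-AS1 it was -0.85 and -0.84 against -4.32 and -4.46, and in ARRDC3-AS1 -6.38 and -6.48 against -3.33 and -3.16. In PSMB8-AS1 the ratios overlapped, at -4.81 and -5.5 against -5.35 and -4.91. The lines stood apart in the ratio of the first 4 of these pairs, and not in that of PSMB8-AS1.

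The siPAI-1 libraries, none of which entered the Scr comparison, gave a second look at the lines. Of the 47 antisense RNAs, 12 were higher in RT112 and 9 lower (44.7%), against 26.2% and 26.1% of all 19359 genes tested (52.2%). Among the 46 sense genes 16 were higher and 15 lower (67.4%). Of these, 16 antisense RNAs were called in the same direction in both comparisons, 8 higher and 8 lower, and none in opposite directions. FAM83H-AS1 had 0.03 and 0.13 TPM in UM-UC-3 siPAI-1 and 114 and 110.0 TPM in RT112 siPAI-1. NCBP2-AS2 (28.2 and 27.9 TPM against 52.2 and 50.7 TPM, adjusted p = 0.00129) and RAB30-AS1 (21.5 and 20.4 TPM against 9.68 and 11.7 TPM, adjusted p = 0.006) again differed from their sense genes, at 108 and 101 TPM against 78.5 and 69.5 TPM for NCBP2 (adjusted p = 0.0112) and 4.82 and 4.86 TPM against 7.07 and 8.23 TPM for RAB30 (adjusted p = 0.0281). The ratio of antisense to sense did not overlap between the lines in 32 of 47 pairs in these libraries, 16 in each direction, where 73.7% of all genes did not overlap in TPM. The members had been selected on all 8 libraries, so these libraries were not independent of the choice.

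Another 9 antisense RNAs passed in 1 of the 2 comparisons. EPB41L4A-AS1, RALY-AS1, PSMB8-AS1 and ST3GAL5-AS1 passed in the Scr libraries alone. In the siPAI-1 libraries alone, MAPKAPK5-AS1 (adjusted p = 0.0229), PAXIP1-AS1 (adjusted p = 0.0466), DNAJC3-AS1 (adjusted p = 0.0434) and GTSE1-AS1 (adjusted p = 0.0263) were higher and LCMT1-AS1 (adjusted p = 0.0117) was lower. Each of these 5 calls was lost in at least 1 other setting of the fit, with adjusted p from 0.0546 to 0.0912. GTSE1-AS1, beside a microtubule-binding cell cycle gene, had 0 and 0.21 TPM in UM-UC-3 siPAI-1 and 1.66 and 1.01 TPM in RT112 siPAI-1. GTSE1 was lower there, at 25.1 and 24.4 TPM against 53 and 52.4 TPM (adjusted p = 0.000869). PAXIP1-AS1, beside a DNA damage response adaptor gene, had 2.71 and 2.72 TPM against 4.04 and 5.08 TPM, and PAXIP1 was lower, at 17.3 and 17.8 TPM against 24.2 and 25.2 TPM (adjusted p = 0.00961). No interaction of line and siRNA passed for any of the 9, so a difference between the 2 comparisons was not shown.

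Knock-down of PAI-1 was compared within each line. No antisense RNA or sense gene passed an adjusted p of 0.05 in limma in either line, and 0% of all genes did. At an unadjusted p under 0.05, in RT112 2 of 47 antisense RNAs were lower and none was higher, against 2.42% lower and 3.35% higher of 18437 genes (5.77% in all); 1 sense gene of 45 was higher. In UM-UC-3, 2 of 46 antisense RNAs were higher and none was lower, against 2.6% and 3.41% of 18528 genes (6.01% in all), and 2 sense genes were higher and 1 lower. SAMD12-AS1, at 0 in UM-UC-3, was not tested there. The interaction of line and siRNA passed for none, and at an unadjusted p under 0.05 1 antisense RNA was higher and 1 lower, against 6.76% of all genes in either direction.

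In 4 cases an antisense RNA reached an unadjusted p under 0.05, and in each the siPAI-1 and Scr libraries did not overlap. In RT112, SLC25A30-AS1, beside a mitochondrial carrier gene, had 1.05 and 0.71 TPM under Scr against 0.18 and 0.2 TPM under siPAI-1 (unadjusted p = 0.0111, adjusted p = 0.838 in limma), on an estimated 2.8 to 13.6 reads per library. NUP50-AS1, beside a nuclear pore gene, had 3.61 and 3.07 TPM against 2.1 and 1.79 TPM (adjusted p = 0.838), on an estimated 76.3 to 149 reads. Both RNAs were lower in the siPAI-1 libraries. In UM-UC-3, CDC37L1-AS1, beside the gene of an HSP90 co-chaperone homologue, had 0.12 and 0.46 TPM under Scr against 1.44 and 1.13 TPM under siPAI-1 (unadjusted p = 0.0201, adjusted p = 0.791), on an estimated 1 to 13.3 reads. EPHA5-AS1 had 10.9 and 13.4 TPM against 15.3 and 17.7 TPM, 1.36 times the level (unadjusted p = 0.0332, adjusted p = 0.81), on an estimated 250.2 to 405.7 reads, while EPHA5 had 19.6 TPM in both control libraries, then 19.5 and 21.9 TPM.

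The remaining named RNAs did not reach an unadjusted p of 0.05. In RT112 these were FAM83H-AS1 (103 and 97.1 TPM under Scr against 114 and 110.0 TPM), DNAJC3-AS1 (0.85 and 0.61 against 1.05 and 2.57 TPM), MAPKAPK5-AS1 (16 and 15.1 against 18.2 and 17.4 TPM), CDC37L1-AS1 (0.12 and 0.13 against 0.22 and 0.96 TPM), OSMR-AS1 (0.57 and 0.26 against 0.11 and 0.12 TPM) and ARRDC3-AS1 (1.58 and 1.54 against 0.95 and 0.63 TPM). In UM-UC-3 they were OSMR-AS1 (1.89 and 1.22 against 2.42 and 2.26 TPM), RALY-AS1 (1.23 and 1.21 against 3.39 and 1.4 TPM), GTSE1-AS1 (0.17 and 0.58 against 0 and 0.21 TPM), GMDS-AS1 (3.62 and 3.76 against 2.53 and 3.04 TPM), ST3GAL5-AS1 (0.95 and 1.63 against 0.89 and 0.55 TPM) and PSMG3-AS1 (1.13 and 1.67 against 0.75 and 1.08 TPM). In TPM, 32.7% of all genes in RT112 and 32.2% in UM-UC-3 did not overlap between siPAI-1 and Scr. The ratio of antisense to sense did not overlap in 15 of 47 pairs in RT112, 8 with a higher ratio after siPAI-1 and 7 with a lower one. In UM-UC-3 it did not overlap in 12 of 47, 7 higher and 5 lower.

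**Figure D5:**
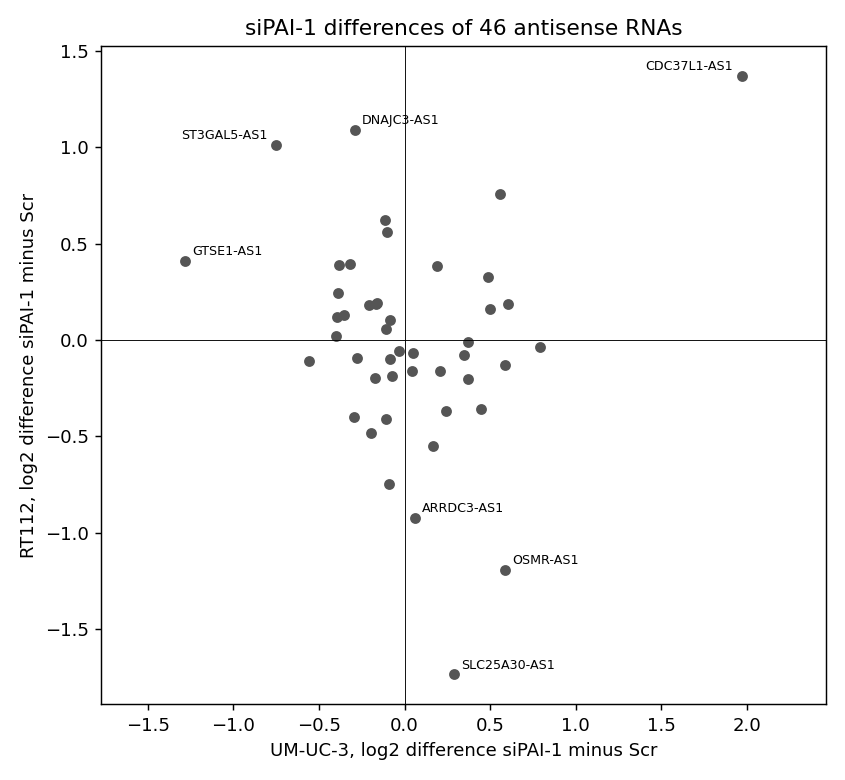
Log2 difference, siPAI-1 minus Scr on the log2(TPM + 0.1) scale, of 46 antisense RNAs in UM-UC-3 (x axis) and RT112 (y axis), with names where either exceeds 0.9. Most points lie near 0 on both axes; CDC37L1-AS1 (1.97 in UM-UC-3 and 1.37 in RT112) is farthest to the upper right, and none of the points passed the adjusted test.

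Genes of RNA surveillance, which degrade many antisense RNAs, were read beside the members. Of 23 such genes (exosome subunits, their adaptors and exonucleases), 5 were higher in RT112 Scr and 10 lower, and 8 did not pass, against the 25.3% and 26.3% of all genes; their median log2 difference was -0.07. The helicase SKIV2L2, also called MTR4, (log2 difference -1.24 ± 0.08, adjusted p = 0.00089) and a catalytic subunit, EXOSC10 (-1.02 ± 0.09, adjusted p = 0.00197), were lower. DIS3, another gene of the list, had 46.21 and 44.65 TPM in UM-UC-3 Scr against 46.69 and 46.7 TPM in RT112 Scr. MPHOSPH6, an exosome-associated protein, was higher (1.23 ± 0.07, adjusted p = 0.000793), and the core subunits were divided, with EXOSC9 lower (-0.7 ± 0.06, adjusted p = 0.00208) and EXOSC7 higher (0.62 ± 0.08, adjusted p = 0.00476). None of the 23 passed after siPAI-1 in either line, and none reached an unadjusted p under 0.05. Their part in the antisense levels was not tested. Of the 84 antisense rows outside the rule, 79 were under the 0.5 TPM limit and 42 could be tested in the Scr comparison. Of those tested, 5 were higher and 3 lower, against 25.3% and 26.3% of all genes.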

How the data were processed

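RNA was sequenced from UM-UC-3 and RT112 cells, 4 groups of 2 libraries, made with a stranded mRNA kit. The authors deposited 2 tables, one of TPM and one of FPKM per gene. Per the labels' processing notes, STAR 2.5.0 and RSEM 1.2.25 on GRCh38 were used; the study's methods name a different counting tool, and the strand setting is not given in the sources used here. Counts were not used here, so no count model was fitted; the depth was estimated from the smallest steps of the deposited FPKM values (29300000 to 34200000 reads), and intervals that need counts were not computed. The 92 spike-in rows, all at 0, were left out.

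Differences were tested with limma 3.58.1 (R 4.3.3) on log2(TPM + 0.1), with a variance trend, on genes above 0 in at least 1 library of the comparison and with p-values adjusted over every gene tested (Benjamini-Hochberg). Each comparison used its own 4 libraries, and the interaction of line and siRNA all 8. A call is an adjusted p under 0.05. The fit was tested on simulated data. SE is the standard error from limma.

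Pairs were placed with GENCODE release 44 mapped to GRCh37, for arrangement alone, and with RefSeq on GRCh38.p14, for positions and promoter windows; 46 antisense RNAs were matched in GENCODE, all 47 had a RefSeq position and 38 a promoter window. Arrangement by RefSeq spans used the strands of GENCODE. Start distances are from the outermost start of each gene. Reads per antisense RNA are upper estimates, made with the longest transcript.

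Named were the 10 most abundant antisense RNAs, up to 10 called in each direction in the Scr comparison, up to 4 per direction and line after siPAI-1, pairs called in opposite directions, the 5 sense genes with the smallest p per direction and the 3 candidates on each side of the limit; items withheld from the text are counted but not reported singly here. Other names were chosen after their values were seen. The members and lists were chosen with earlier results of these data known. Alternatives were other pseudocounts, FPKM, rescaling, a 1 TPM filter, 1 fit over all libraries, no trend, a replicate block and leaving out each library. Replicate numbers did not pair the libraries: the correlations of replicate differences between groups were -0.043 to 0.098.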

Additional observations from a re-analysis of the deposited data

Results flagged for a closer look

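In 3 antisense RNAs the siPAI-1 libraries lay wholly above Scr in 1 line and wholly below it in the other, as did 5.14% of all 20274 genes. The interaction of line and siRNA (difference in RT112 minus difference in UM-UC-3, log2) was tested with limma and passed for none, as for 0 of all 20274 genes; at an unadjusted p under 0.05 it passed for 6.76% of genes. OSMR-AS1 had an interaction of -1.78 ± 0.58 (adjusted p = 0.661, 0.356 to 0.741 over its alternatives), with 0.57 and 0.26 TPM in RT112 Scr, 0.11 and 0.12 TPM in RT112 siPAI-1, 1.89 and 1.22 TPM in UM-UC-3 Scr and 2.42 and 2.26 TPM in UM-UC-3 siPAI-1. ST3GAL5-AS1 had an interaction of 1.76 ± 0.73 (adjusted p = 0.73, 0.418 to 0.781 over its alternatives), with 0.34 and 0.14, 0.78 and 0.39, 0.95 and 1.63, and 0.89 and 0.55 TPM in the same order of groups. FGF14-AS2 had an interaction of 0.73 ± 0.32 (adjusted p = 0.75, 0.424 to 0.8 over its alternatives), with 1.11 and 0.94, 1.62 and 1.63, 3.22 and 3.02, and 3 and 2.76 TPM. The sense genes OSMR (-0.39 ± 0.17), ST3GAL5 (0.44 ± 0.2) and FGF14 (0.11 ± 0.36) did not pass either.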

How the results depend on the processing

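Leaving out 1 library moved the counts most, and each such fit assumes that the lone library of a group varies like the other group. Of the 20 antisense RNAs called between the lines in Scr, 4 (GATA3-AS1, FAM83H-AS1, GAS6-AS2 and SAMD12-AS1) kept the call in all 4 such fits and 7 (PSMB8-AS1, PSMG3-AS1, ST3GAL5-AS1, RAB30-AS1, OSMR-AS1, NCBP2-AS2 and EPB41L4A-AS2) kept it in none. The calls lost were 12 and 13 without RT112 Scr replicate 1 and 2, and 12 and 11 without UM-UC-3 Scr replicate 1 and 2. The counts ranged from 4 to 7 (antisense higher), 3 to 4 (antisense lower), 7 to 11 (sense higher) and 7 to 9 (sense lower) in Scr, and from 6 to 7, 4 to 7, 9 to 11 and 5 to 11 in siPAI-1. The interaction counted 0 to 1 sense genes lower, the 1 without UM-UC-3 siPAI-1 replicate 1.

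With genes of at least 1 TPM alone, 5 in place of 9 antisense RNAs were lower in RT112 Scr. Of the 9, GAS6-AS2, PTPRD-AS1, ST3GAL5-AS1, SH3RF3-AS1 and OSMR-AS1 averaged under 1 TPM over the Scr libraries and were not tested in that fit. The 5 called lower there therefore also held a call gained in that fit. A limit of 1 TPM left 31 members and one of 0.25 TPM gave 54. In all, 235 of 258 recomputed counts stayed within 1.5 times. Many of these were siPAI-1 and interaction counts of 0 in the main fit, taken as unchanged if still 0. The share therefore says little about the line counts. Of 1430 recomputed single-gene values, 218 lost the call. Results not called in the main fit were among the 1430 and had no call to lose. Another 2 changed sign: MAPKAPK5-AS1 (-0.17 and 0.33 without UM-UC-3 Scr replicate 1 and 2) and EIF3J-AS1 (-0.01 and 0.47 without RT112 Scr replicate 1 and 2). Neither was called, and the cause was not tested. Other than by leaving out a library, the Scr calls of EPB41L4A-AS1 (adjusted p = 0.0531, 1 fit over all 8 libraries), EPB41L4A-AS2 (0.0503) and OSMR-AS1 (0.053, both with 0.01 TPM added; 0.0535 without the trend) and ST3GAL5-AS1 (0.0543, replicate block) were lost. The siPAI-1 calls lost were those of MAPKAPK5-AS1 (0.0654), PAXIP1-AS1 (0.0702) and LCMT1-AS1 (0.0575) in 1 fit over all 8 libraries, DNAJC3-AS1 (0.0608) and SAMD12-AS1 (0.0536) with 1 TPM added, DNAJC3-AS1 without the trend (0.06), GTSE1-AS1 (0.0912) with 0.01 TPM added, and MAPKAPK5-AS1 (0.0546), PAXIP1-AS1 (0.0822), FGF14-AS2 (0.0923) and the sense gene RAB30 (0.0561) with the replicate block. Among sense genes, SRP14, YTHDF3, LCMT1 and RASAL2 also lost their Scr call in at least 1 setting that kept all libraries. The siPAI-1 calls of RALY, SRP14, YTHDF3, FLVCR1, RASAL2, ST3GAL5 and CDC37L1 were likewise lost in at least 1 such setting. With the replicate block, a number that the libraries share without being paired, 11 antisense RNAs were higher and 9 lower, and 16 sense genes higher and 13 lower in Scr. These 9 did not include ST3GAL5-AS1, which lost its call with the block, so a call was also gained. Gained calls are not named here. The number of pairs with the same sign was 29 with 1 or 0.01 TPM added, alternatives chosen after seeing the data. RNAs under about 10 reads per library are limited by depth.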
